A study of Mus musculus with 12 samples.

Results

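Integrins, laminins and matrix glycoproteins were followed as a set of 41 genes in bulk RNA-seq of mouse satellite cells. The set was chosen by gene name, out of 55401 genes in the count table: 25 genes of integrin α and β subunits, 10 genes of laminin chains, fibronectin, tenascin-C, the nidogen pair, and the basement membrane proteoglycans perlecan and agrin. Satellite cells are the stem cells of skeletal muscle. The study asked what the chemokine receptor CXCR4 does in them, and profiled Pax7-ZsGreen+ cells of the hind limbs of adult mice, which were sorted on ZsGreen and not on an integrin. All mice carried Cxcr4 FL/FL alleles and the Pax7-ZsGreen reporter, and all were given 5 daily tamoxifen injections of 80 mg/kg. KO mice also carried Pax7-creERT2, which limits recombination to Pax7-expressing cells, and WT mice lacked cre. Freshly sorted cells are called quiescent here and gave 4 WT and 4 KO libraries. Cells cultured overnight in growth medium are called activated and gave 2 WT and 2 KO libraries. How many mice entered each library is not given in the sources used here, so that p-values measure the spread between these libraries.

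Satellite cells lie between the muscle fibre and its basement membrane. Integrins are α/β pairs of transmembrane subunits that bind this matrix and link it to the cytoskeleton. Laminins are trimers of 1 α, 1 β and 1 γ chain that polymerise into the sheet of the basement membrane, nidogens and perlecan tie that sheet to collagen IV, and fibronectin and tenascin-C are glycoproteins of the interstitial and transitional matrix of injured or growing tissue. Satellite cells are known to both contact and secrete many of these proteins.

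The libraries of the 2 states differed in more than culture. Depth was 12775593 to 23717013 counts in the 8 quiescent libraries and 3172164 to 5427280 counts in the 4 activated libraries, of which 11.5% to 40.3% fell on the ribosomal RNA gene CT010467.1, against 0.295% to 0.807% in quiescent libraries. Cxcr4 was measured at 59.1 to 112 CPM (counts relative to each library's total after TMM scaling) in WT and 12.5 to 21.2 CPM in KO quiescent cells, and at 33.3 and 14.4 CPM in WT and 5.39 and 13.7 CPM in KO activated cells. The quiescent libraries carried Y-linked transcripts (4 genes summed, 358 to 660 CPM) with at most 7.17 CPM of Xist, and the activated libraries carried 451 to 817 CPM of Xist with at most 2.51 CPM of the Y-linked genes, so that state, sex and depth cannot be told apart. Satellite cell markers were detected in all libraries (Calcr alone was at 0 in 1 library, KO activated replicate 1). Pax7 was at 303 to 482 CPM in WT and 181 to 290 CPM in KO quiescent libraries, without overlap. In activated libraries Pax7 was at 71.2 to 130 CPM. Markers of other cells were present too. In the quiescent libraries 10 endothelial markers summed to 349 to 1693 CPM, 8 smooth muscle and pericyte markers to 1490 to 2762 CPM and 7 Schwann cell markers to 499 to 923 CPM, all of them detected. In bulk RNA, fewer cells of a type and less RNA per cell cannot be told apart. All 41 genes passed the filter on low counts over the 12 libraries, but only 29 passed it on the activated libraries alone. The 12 others were Itga4, Itga8, Itgae, Itgal, Itgam, Itgax, Itgb2, Itgb8, Lama1, Lama3, Lamb3 and Lamc3.

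**Figure D1:**
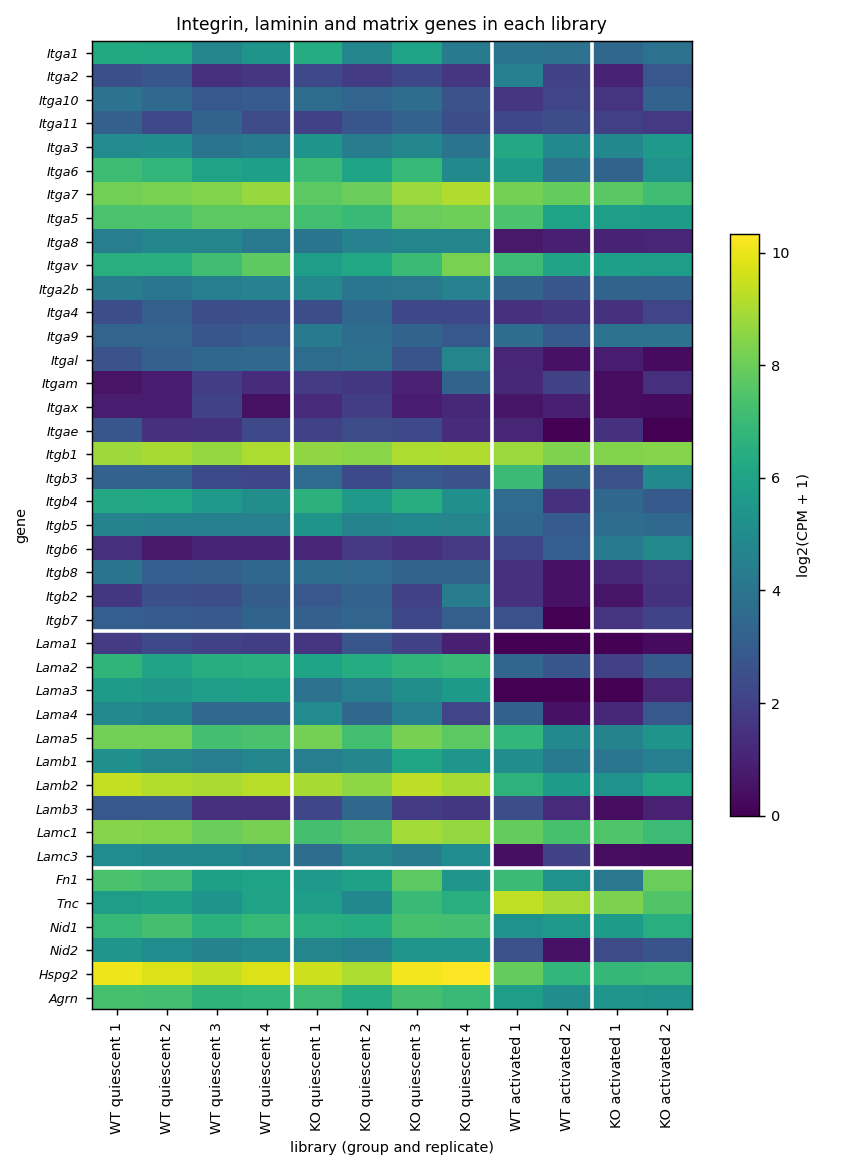
Heat map of log2(CPM + 1) for the 41 genes (rows, integrins above, laminins in the middle, other matrix genes below) in the 12 libraries (columns, by group and replicate). Hspg2, Lamb2 and Itgb1 are the brightest rows in quiescent cells, and the row of Tnc is brighter in activated than in quiescent cells while most laminin rows are darker.

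In quiescent cells the set was led by the common integrin β subunit, by laminin chains of the muscle basement membrane and by perlecan. Levels were compared between genes per kilobase of exon. In WT quiescent cells Itgb1, which pairs with most of the α subunits measured here, had the highest level at 116 ± 13.3 CPM per kb (SD, n = 4). Lamb2, a laminin β chain of adult basement membranes, followed at 95.7 ± 9.99, and Hspg2, the gene of perlecan, at 61.2 ± 10.9 CPM per kb. The next group held Itga7, the laminin receptor α subunit by which satellite cells are often sorted, at 41 ± 7.87, Itga5, the α subunit of the classical fibronectin receptor, at 38.2 ± 5.01, and Lamc1, the γ chain of most laminins, at 36.7 ± 5.23 CPM per kb. The library values of these last 3 overlapped, and their order is not resolved.

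The laminin α chains, which set the isoform, were lower and unequal. Lama5, a widespread α chain, was at 19 ± 6.22 CPM per kb, Lama2, the α chain of the main laminin of adult muscle fibres, at 5.36 ± 1.06, Lama3, known from epithelial basement membranes, at 4.7 ± 0.58, and Lamc3, a less common γ chain, at 4.41 ± 0.733. Lama2, Lama3 and Lamc3 overlapped between libraries, and all 3 stood below Lama5. Lama4, an α chain of vessel walls, was at 1.51 ± 0.752, and Lama1, the α chain of early embryonic basement membranes, at 0.314 ± 0.0639 CPM per kb. Of the β chains, Lamb1 at 2.69 ± 0.608 and Lamb3 at 0.596 ± 0.401 CPM per kb were far below Lamb2 in every library.

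Among the other receptors, Itgav, the α subunit shared by the vitronectin receptors, was at 12.4 ± 5.45 and Itga6, a second laminin receptor subunit, at 10 ± 4.41 CPM per kb. Itga4, which binds VCAM1 and fibronectin, was at 0.387 ± 0.114 CPM per kb. The epithelial subunit Itgb6, which with Itgav activates latent TGF-β, had the lowest level of all 41 genes in both genotypes, 0.161 ± 0.0626 CPM per kb in WT and 0.262 ± 0.0798 in KO. Itga2b, the platelet integrin α subunit, was at 19.6, 15.8, 20.3 and 22.6 CPM in the 4 WT libraries, while 5 other platelet markers summed to at most 7.95 CPM in any library and Gp1bb was at 0 in all of them. KO quiescent cells had the same 6 genes at the top, in the same order.

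**Figure D2:**
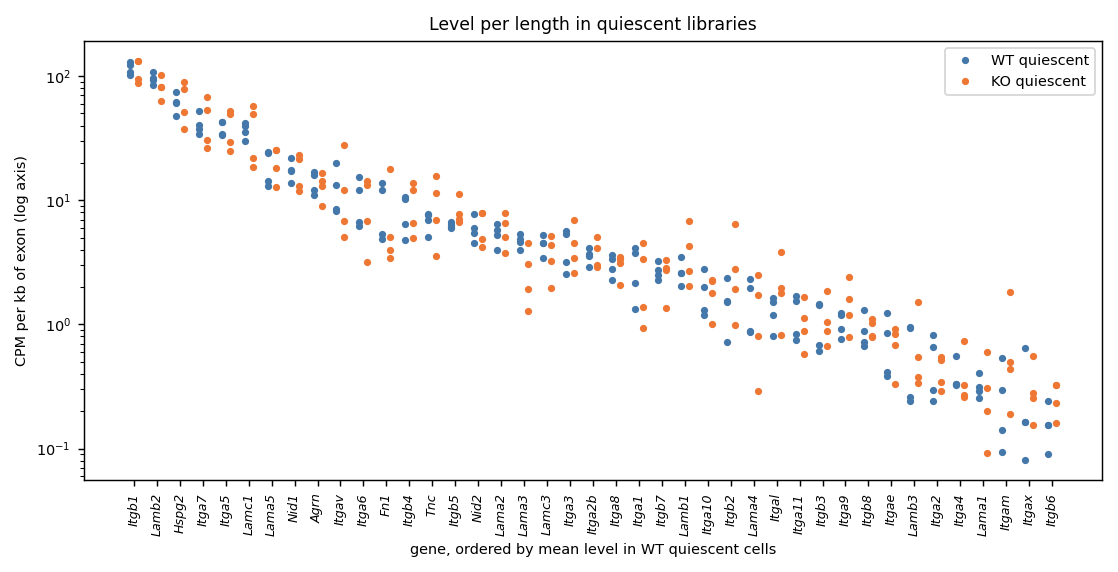
Level of each gene in CPM per kb of exon (vertical axis, log scale) in the 4 WT and 4 KO quiescent libraries (points), with genes ordered by their mean in WT. Levels run from 116 ± 13.3 CPM per kb for Itgb1 (mean ± SD) down to 0.161 ± 0.0626 for Itgb6, and WT and KO points overlap for every gene but Itgb5.

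Several genes varied between quiescent libraries of both genotypes more than between the genotypes. Itga6 was at 138, 109, 59.9 and 55.7 CPM in WT replicates 1 to 4 and at 129, 62, 121 and 28.9 CPM in KO replicates 1 to 4. Itgb4, the partner of Itga6 in hemidesmosomes, was at 74.7, 71.5, 45.1 and 33.7 CPM in WT and at 96.9, 45.8, 84.7 and 35 CPM in KO. Itga1, a collagen receptor subunit, was at 77.2, 69.8, 25 and 39.9 CPM in WT and at 83.7, 25.6, 62.3 and 17.4 CPM in KO. WT replicates 1 and 2 and KO replicates 1 and 3 were high for all 3 genes. The summed endothelial markers were 1545, 1524, 630 and 742 CPM in the WT and 1693, 579, 1506 and 349 CPM in the KO libraries, highest in the same 4. The summed Schwann cell markers were highest in these 4 libraries too, at 732 and 860 CPM in WT and 923 and 892 CPM in KO. They were at 499 to 704 CPM in the other quiescent libraries. The part of either cell type in the levels of these genes was not tested.

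The leukocyte integrins showed another library apart. Itgal, the α subunit of LFA-1, was at 11.7, 12.8, 5.4 and 25 CPM in KO and at 5.32, 7.88, 9.96 and 10.7 CPM in WT quiescent cells. Itgb2, its β partner, was at 5.89, 8.47, 3.03 and 19.7 CPM in KO and at 2.19, 4.68, 4.61 and 7.27 CPM in WT. KO replicate 4 was highest for both, as it was for Itgam at 2.5, 2.19, 0.955 and 9.11 CPM in the 4 KO libraries. The 12 blood markers, of which S100a9 was at 0 in KO quiescent replicate 4 and all others were detected in every quiescent library, summed to 423 CPM in that library and to 99.1 to 226 CPM in the other 7, and their part in these levels was not tested.

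The first comparison asked whether deletion of Cxcr4 changed the set in quiescent cells. No gene of the set passed: 0 of 41 were called by edgeR's quasi-likelihood test, where a call asked for an adjusted p under 0.05, a log2 change larger than 1 in size and more than 10 normalised counts on average, and 0.0155% of the 25771 genes tested were called. The median log2 fold change, KO minus WT, was 0.05 over the set and 0.02 over all genes tested, and 1 of 41 genes had an unadjusted p under 0.05, against 448 of all genes (1.74%). DESeq2 on all libraries called 0 of the 41 genes as well, and 0.0194% of all genes.

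The main receptors and their ligands were not called. The log2 fold change was −0.05 ± 0.21 (SE) for Itgb1, 0.12 ± 0.27 for Itga7, 0.04 ± 0.28 for Itga5 and 0.06 ± 0.41 for Itgav. It was 0.11 ± 0.26 for Lama2, 0.01 ± 0.30 for Lamc1, 0.07 ± 0.27 for Hspg2 and −0.08 ± 0.23 for Agrn, which encodes the proteoglycan that clusters acetylcholine receptors. Itga6 (−0.09 ± 0.45), Itga4 (0.04 ± 0.41), Fn1 (−0.25 ± 0.61) and Tnc (0.46 ± 0.33) were not called either. The adjusted p of all 12 was 1 by edgeR's quasi-likelihood test.

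Lama3 was the gene with the smallest p in quiescent cells. It was at 49.3, 42.9, 51.9 and 57.9 CPM in WT and at 13.9, 20.6, 33 and 48.4 CPM in KO. KO replicates 1 to 3 lay below every WT library and KO replicate 4 lay among them. KO minus WT was −0.80 ± 0.34 on the log2 scale (SE), unadjusted p 0.0286, adjusted p = 1, by edgeR's quasi-likelihood test. Itgb5, an Itgav partner that binds vitronectin, was the 1 gene of 41 without overlap between the genotypes, where 1.7% of all genes tested had none: it was at 23.7, 22.5, 21.2 and 21.7 CPM in WT and 40, 23.7, 27.6 and 25.1 CPM in KO. Every KO library was above every WT library, the lowest of them by a narrow margin, and the log2 fold change of 0.39 ± 0.23 (SE) had an adjusted p of 1 by edgeR's quasi-likelihood test. Lama3 and Itgb5 were singled out after their values were seen.

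The second comparison set activated against quiescent cells, in each genotype on its own libraries. Of the laminin chains 6 of 10 fell in both genotypes, as did nidogen 2, perlecan, agrin and Itga8, and tenascin-C and Itgb6 rose in both. Of the genes that fell here, Lama1, Lama3, Lamc3 and Itga8 did not pass the filter on the activated libraries alone. In WT, 23 of 41 genes were called (56.1%), where 26.2% of all genes tested were called. Of these 5 rose (12.2% of the set, against 9.65% of all genes) and 18 fell (43.9%, against 16.5%). In KO, 24 of 41 were called (58.5%, against 29.6% of all genes), of which 2 rose (4.88%, against 11.1%) and 22 fell (53.7%, against 18.5%). The falls include Itga8, Itgal, Itgb8, Lama1, Lama3 and Lamc3 in both genotypes, and Itgb2 and Lamb3 in KO. These genes did not pass the filter on the activated libraries alone, so that a fall was nearly the only call open to them. Of all genes, 12283 passed it there, so the shares of all genes hold such genes too. With all libraries thinned to equal counts, 37 of the 41 genes could be tested, of which 3 rose in WT (8.11%, against 18.5% of all genes) and 16 fell (43.2%, against 18.9%), and in KO 2 rose (5.41%, against 19.5%) and 18 fell (48.6%, against 20.5%). The median log2 fold change of the set was −1.42 in WT and −1.85 in KO, beside −0.92 and −0.96 over all genes tested and −0.37 and −0.41 over those with a mean normalised count over 10. Both activated libraries lay below all 4 quiescent libraries for 25 of 41 genes in WT (38.4% of all genes tested) and for 25 of 41 in KO (36.1%).

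The calls of the genotypes shared most genes. Of the genes that fell, 16 were common to the 18 of WT and the 22 of KO, and Tnc and Itgb6 were common to the 5 and the 2 that rose. No gene was called in opposite directions. Itga10 and Nid1 fell in WT alone, Itga5, Itga6, Itga7, Itgb2, Lamb1 and Lamb3 in KO alone, and Itga2, Itga3 and Itgb3 rose in WT alone, but none of these genes had a tested difference of the activation change between genotypes at an adjusted p under 0.05. The 12 genes called in neither genotype were Fn1, Itga4, Itga9, Itga11, Itgae, Itgam, Itgav, Itgax, Itgb1, Itgb7, Lama4 and Lamc1.

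**Figure D3:**
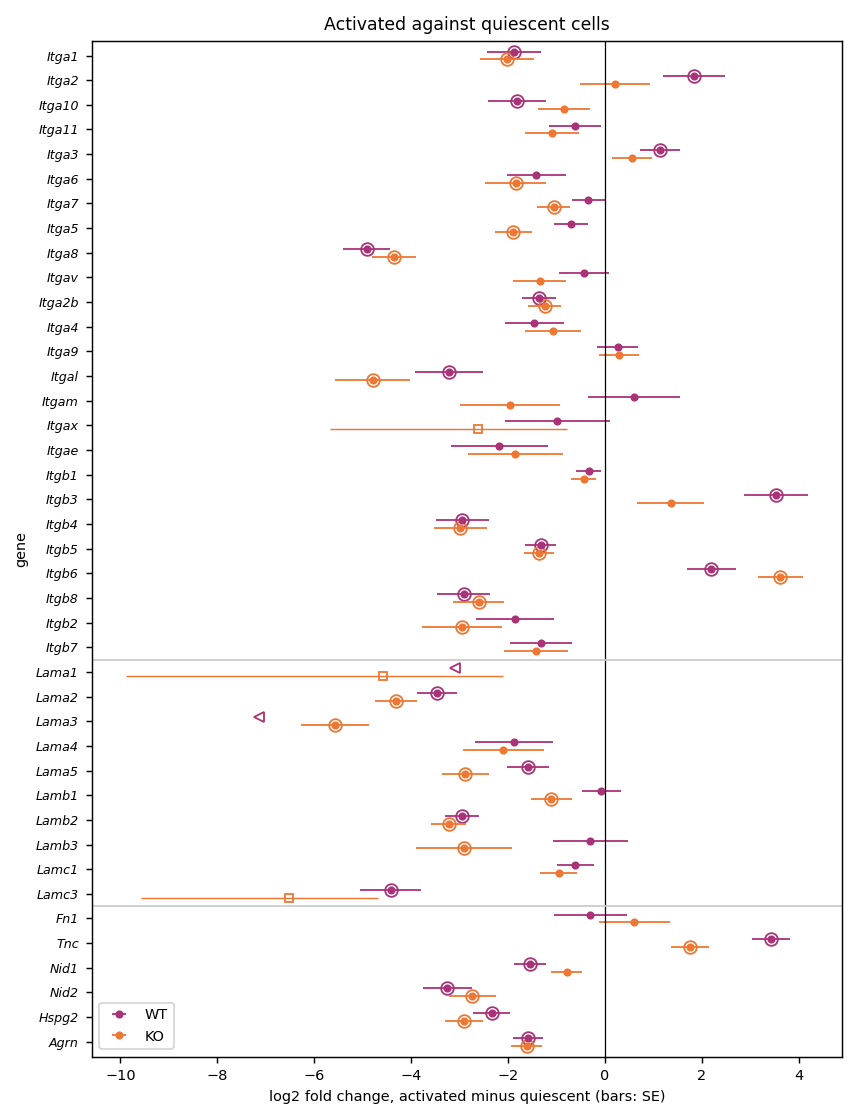
Log2 fold change of activated minus quiescent cells (horizontal axis, bars show the SE) for the 41 genes in WT and KO. Rings mark called genes, open triangles are bounds for genes with 0 counts in the activated group, and open squares are ratios with 95% counting intervals for genes with 1 to 3 counts. Points lie mostly left of 0, with Tnc and Itgb6 to the right in both genotypes.

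Laminin chains gave the most uniform direction. Of the 10 chains, 6 fell in WT (60%, against 16.5% of all genes) and 8 in KO (80%, against 18.5%), and none rose in either. The log2 fold change was below 0 for all 10 in both, where the median over all genes tested was itself −0.92 in WT and −0.96 in KO. For Lama1, Lama3, Lamb3 and Lamc3, which did not pass the filter on the activated libraries alone, a fall was nearly the only call possible. Lama2, Lama5 and Lamb2 passed it there and fell in both genotypes. Lama2 was at 106, 64.9, 85.7 and 93.4 CPM in WT and 61.7, 82.1, 107 and 128 CPM in KO quiescent cells, and at 9.48 and 5.69 CPM in WT and 2.83 and 6.62 CPM in KO activated cells. All 4 activated libraries lay far below all 8 quiescent libraries. Its log2 fold change was −3.47 ± 0.41 (SE) in WT, with an adjusted p of 2.72e-06, and −4.31 ± 0.43 in KO, with an adjusted p of 4.03e-07, by edgeR's quasi-likelihood test.

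Lama3, the α chain of the epithelial laminin that anchors hemidesmosomes, left almost no counts after culture. The WT activated libraries had 0 counts, which on a floor of 3 counts over the group makes the WT level at least 141-fold lower than in quiescent cells. The KO activated libraries had 0 and 1.14 CPM, from a KO quiescent range of 13.9 to 48.4 CPM. The KO log2 fold change was −5.58 ± 0.71 (SE, adjusted p 7.61e-06, edgeR's quasi-likelihood test).

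Lama1 was low to begin with, at 2.45, 3.9, 3.03 and 2.79 CPM in WT quiescent cells. It had 0 counts in WT activated libraries, at least 8.53-fold lower on the same floor, and 1 count in the KO activated libraries, a ratio of 24.0 to the quiescent mean with a 95% exact counting interval of 4.32 to 950.0. Such intervals and floors cover counting error only. Lamc3 was at 31.8, 27.4, 27.3 and 21 CPM in WT quiescent and 0.327 and 3.07 CPM in WT activated libraries, and in KO it fell from 11.9 to 31.4 CPM to 2 counts over the activated group, a ratio of 92.6 (25.6 to 765). The WT log2 fold change was −4.42 ± 0.63 (SE, adjusted p 2.31e-05, edgeR's quasi-likelihood test).

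The abundant chains fell by less in proportion and by more in counts. Lamb2 was at 515 to 662 CPM in WT and 383 to 624 CPM in KO quiescent cells, and at 99.8 and 49 CPM in WT and 38.5 and 68.4 CPM in KO activated cells. All activated libraries lay far below all quiescent libraries. The log2 fold change was −2.96 ± 0.35 (SE) in WT and −3.23 ± 0.36 in KO, with adjusted p of 3.36e-06 and 1.32e-06 by edgeR's quasi-likelihood test. Lama5 fell as well, with log2 fold changes of −1.59 ± 0.44 in WT and −2.88 ± 0.48 in KO (SE). Its WT call rested on both activated libraries, at 112 and 29.8 CPM, and without WT activated replicate 2 the log2 fold change was −0.89 and was not called.

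Lamc1, the γ chain that nearly all laminins share, was not called. It was at 344, 330.3, 248 and 292 CPM in WT and 155, 182, 476 and 413 CPM in KO quiescent cells, and at 236 and 159.8 CPM and 179.5 and 136 CPM in activated cells. The WT activated libraries lay just below the WT quiescent ones, and those of KO lay at the lower end of a wide KO range. Activated minus quiescent was −0.61 ± 0.38 on the log2 scale (SE, adjusted p 0.213) in WT and −0.96 ± 0.38 (adjusted p 0.0601) in KO by edgeR's quasi-likelihood test. Lamb1 had a log2 fold change of −0.08 ± 0.40 in WT and of −1.11 ± 0.42 in KO (SE), the second of them called lower, a call that held under 9 of 23 alternative settings.

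The RNA of perlecan, agrin and nidogen 2 fell in both genotypes too. Hspg2 was at 1060.4, 889, 678 and 876 CPM in WT and 742, 533, 1119 and 1279 CPM in KO quiescent cells, and at 232 and 113 CPM and 117 and 127 CPM in activated cells. The groups were well separated in both genotypes, with log2 fold changes of −2.34 ± 0.38 (SE) in WT and −2.91 ± 0.39 in KO and adjusted p of 9.83e-05 and 1.24e-05 by edgeR's quasi-likelihood test. Agrn was at 157, 149, 103 and 112 CPM in WT and 134, 83.2, 154 and 122 CPM in KO quiescent cells, and at 53.6 and 32 CPM and 41.9 and 38.3 CPM in activated cells. The groups did not overlap, and the log2 fold changes were −1.59 ± 0.31 in WT and −1.62 ± 0.31 in KO (SE; adjusted p 0.000596 and 0.000466, edgeR's quasi-likelihood test). Nid2, a nidogen that bridges laminin and collagen IV, was at 23.3 to 40.4 CPM in WT and 21.9 to 40.9 CPM in KO quiescent cells, and at 4.9 and 0.438 CPM and 4.11 and 5.48 CPM in activated cells. Its groups did not overlap, and the log2 fold changes were −3.25 ± 0.51 and −2.74 ± 0.48 (SE; adjusted p 6.81e-05 and 0.000209, edgeR's quasi-likelihood test). Nid1, its paralogue, fell in WT, with a log2 fold change of −1.55 ± 0.33, and was not called in KO, with −0.79 ± 0.32 (SE).

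Marker sums of other cells differed between the states too, though not every marker of a list moved alike. The smooth muscle and pericyte sum was 1490 to 2762 CPM in quiescent and 223 to 424 CPM in activated libraries, and the Schwann cell sum was 499 to 923 and 93.3 to 283 CPM. All 8 and all 7 markers of these lists were detected in each group. In the first list Notch3 made up a large part, at 366 to 997 CPM in quiescent and 9.35 to 24.7 CPM in activated libraries. Acta2 and Myh11 fell without overlap as well, while Abcc9, Cspg4, Kcnj8, Pdgfrb and Rgs5 overlapped between the states. Abcc9 was at 17.5 to 89.5 and 19.8 to 55 CPM, and Rgs5 at 171.3 to 1066 and 135.9 to 223.5 CPM. The endothelial sum was 144 to 845 CPM in activated libraries and the fibroadipogenic progenitor sum was 255 to 527 CPM in quiescent and 141 to 245 CPM in activated libraries. Markers of this last list went both ways. Dpt was at 57.4 to 375 CPM in quiescent and 13.6 to 26.9 CPM in activated libraries. Pdgfra was at 3.07 to 9.97 and 8.66 to 28.3 CPM, and Dcn at 27 to 114 and 66.7 to 118 CPM. The satellite and myogenic sum was 5900 to 9920 CPM in quiescent and 2812 to 4156 CPM in activated libraries, and 8 mature fibre markers summed to 282 to 1013 CPM and 7274 to 17462 CPM. Their part in the change of the laminins, perlecan and the integrins was not tested.

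Among the integrins, 4 of 25 rose in WT (16%, against 9.65% of all genes) and 8 fell (32%, against 16.5%), and in KO 1 rose (4%, against 11.1%) and 11 fell (44%, against 18.5%). Of those that fell, Itga8, Itgal, Itgb8 and, in KO, Itgb2 did not pass the filter on the activated libraries alone. Itga8, an α subunit that binds nephronectin and fibronectin and lies on chromosome 2 at 12106632 to 12301922 (GRCm38, minus strand), had the lowest WT fold change of the integrins. It was at 20.5, 26.6, 24.7 and 16.8 CPM in WT and 15.3, 23, 25.9 and 24.9 CPM in KO quiescent cells, and at 0.653 and 0.876 CPM and 1.03 and 1.14 CPM in activated cells. All activated libraries were near 1 CPM, with no overlap, and the log2 fold changes were −4.92 ± 0.49 and −4.35 ± 0.45 (SE; adjusted p 5.08e-07 and 6.54e-07, edgeR's quasi-likelihood test). Itgb8, the other TGF-β-activating partner of Itgav, fell with log2 fold changes of −2.92 ± 0.55 in WT and −2.61 ± 0.52 in KO, and Itgb4 with −2.94 ± 0.55 and −2.98 ± 0.55 (SE). Itgal fell with −3.21 ± 0.71 and −4.79 ± 0.78, beside a blood marker sum of 40.2 to 76.2 CPM in activated and 99.1 to 423 CPM in quiescent libraries, whose part in this was not tested. Smaller falls were seen in both genotypes for Itga1 (−1.89 ± 0.56 and −2.02 ± 0.56), Itga2b (−1.35 ± 0.35 and −1.25 ± 0.34) and Itgb5 (−1.33 ± 0.32 and −1.37 ± 0.31).

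Of the main laminin and fibronectin receptor subunits of satellite cells, Itgb1, Itga4, Itga5, Itga6, Itga7 and Itgav, none was called in WT, and Itga5, Itga6 and Itga7 fell in KO. Itgb1 was at 443, 506, 415 and 533 CPM in WT and 390.3, 361, 535 and 543 CPM in KO quiescent cells, and at 431 and 317 CPM and 331 and 345 CPM in activated cells. WT groups overlapped, both KO activated libraries lay just below the KO quiescent ones, and the log2 fold changes of −0.34 ± 0.26 and −0.44 ± 0.26 (SE) were not called (adjusted p 0.305 and 0.191, edgeR's quasi-likelihood test). Itgb1 remained the gene with the highest level per length in all 4 groups, at 91.7 ± 19.7 CPM per kb in WT and 82.8 ± 2.57 in KO activated cells (SD, n = 2).

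Itga7 was at 277, 303, 326 and 423 CPM in WT and 212, 246, 432 and 551 CPM in KO quiescent cells, and at 284 and 237 CPM and 204 and 141 CPM in activated cells. WT groups overlapped and those of KO did not, and the log2 fold change was −0.35 ± 0.34 (SE, adjusted p 0.419) in WT and −1.06 ± 0.35 (adjusted p 0.0244) in KO by edgeR's quasi-likelihood test. The KO call was lost under 8 of 23 alternative settings, among them leaving out KO quiescent replicate 3 or 4 or either KO activated library. Itga6 had log2 fold changes of −1.42 ± 0.61 in WT and −1.85 ± 0.62 in KO, of which the second was called (SE; adjusted p 0.0825 and 0.0288, edgeR's quasi-likelihood test), with WT activated libraries at 51.3 and 14.4 CPM and KO activated libraries at 8.99 and 38.1 CPM. Within each genotype 1 activated library was more than 3 times as high as the other, and the KO call was lost without KO quiescent replicate 1 or 3 or KO activated replicate 1.

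Itga5 was at 167, 167, 211 and 209 CPM in WT and 146, 122, 246 and 260.2 CPM in KO quiescent cells, and at 167 and 63.1 CPM and 54.5 and 49.5 CPM in activated cells. WT activated replicate 1 was at the quiescent level and the other 3 activated libraries were well below it. On the log2 scale the change was −0.70 ± 0.35 (SE, adjusted p 0.139) in WT and −1.90 ± 0.38 (adjusted p 0.000699) in KO by edgeR's quasi-likelihood test. Itgav was at 133 and 63.9 CPM in WT and 55.7 and 53.6 CPM in KO activated cells, from 88.1 to 213 and 54.7 to 301 CPM in quiescent cells, and was not called (−0.43 ± 0.51 and −1.35 ± 0.54, SE). Itga4 was at 1.8 and 2.19 and 1.8 and 3.42 CPM, from 4.54 to 7.8 and 3.66 to 10.3 CPM, and was not called either (−1.46 ± 0.61 and −1.08 ± 0.57).

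Of the genes that rose, Tnc reached the highest level. It encodes an anti-adhesive glycoprotein that appears transiently in regenerating muscle, and lies on chromosome 4 at 63959785 to 64047015 (GRCm38, minus strand). It was at 53.8, 59.1, 39.2 and 60.7 CPM in WT and 54.1, 27.5, 122 and 88.6 CPM in KO quiescent cells, and at 643 and 493 CPM in WT and 313 and 182 CPM in KO activated cells. Every activated library was above every quiescent library. The log2 fold change was 3.42 ± 0.39 (SE, adjusted p 2.09e-06) in WT and 1.76 ± 0.38 (adjusted p 0.00152) in KO by edgeR's quasi-likelihood test, and the KO call was lost without KO activated replicate 1 (log2 fold change 1.30). Per length, Tnc went from rank 14 of 41 in WT and 12 in KO quiescent cells to rank 2 in both activated groups, at 73.1 ± 13.6 and 31.8 ± 11.9 CPM per kb (SD, n = 2).

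Itgb6, on chromosome 2 at 60598292 to 60722643 (GRCm38, minus strand), rose from the lowest level per length of the set in quiescent cells. It was at 1.72, 0.639, 1.1 and 1.11 CPM in WT and 1.15, 2.32, 1.66 and 2.31 CPM in KO quiescent cells, and at 3.59 and 7.44 CPM in WT and 17.5 and 28.3 CPM in KO activated cells. All activated libraries were above all quiescent ones, and the KO activated libraries were above those of WT. The log2 fold change was 2.20 ± 0.50 (SE, adjusted p 0.00249) in WT and 3.62 ± 0.46 (adjusted p 5.83e-06) in KO by edgeR's quasi-likelihood test. The WT call was lost without WT activated replicate 2 (adjusted p 0.0667). Itgb3, the vitronectin receptor β subunit, was called higher in WT (3.53 ± 0.67, SE, adjusted p 0.000442, edgeR's quasi-likelihood test), at 131 and 8.76 CPM in WT activated cells from 3.61 to 8.59 CPM in quiescent cells. Replicate 1 was far above the quiescent range and replicate 2 just above it, and without replicate 1 the log2 fold change was 0.58 and was not called.

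The other integrins either changed in 1 genotype or were not called. The collagen-binding subunit Itga2 was at 4.7, 5.82, 1.71 and 2.12 CPM in WT quiescent and 21.4 and 3.07 CPM in WT activated cells. Only replicate 1 was above the quiescent range, and the WT call (log2 fold change 1.83 ± 0.65, SE, adjusted p 0.0382, edgeR's quasi-likelihood test) turned to −0.14, not called, without it. Itga3, a laminin receptor subunit, was likewise called higher in WT (1.13 ± 0.41, SE) at 73.8 and 28.9 CPM from 14.5 to 32 CPM, and was not called without that library (0.36). Without WT quiescent replicate 3 or 4 neither Itga2 nor Itga3 was called. Itga10, another collagen receptor subunit, was called lower in WT (−1.82 ± 0.60, SE) and not in KO (−0.84 ± 0.53), and the WT call was lost without WT quiescent replicate 1 or 2 or either WT activated library. The collagen receptor subunit Itga11 had log2 fold changes of −0.62 ± 0.54 and −1.09 ± 0.56, and Itga9, which binds tenascin-C and osteopontin, of 0.26 ± 0.42 and 0.29 ± 0.41 (WT and KO, SE), and neither was called.

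The leukocyte subunits were low after culture. Itgae and Itgb7, the α and β subunits of an intraepithelial lymphocyte integrin, were at 1.14 and 0 and 5.06 and 0 CPM in the WT and 1.8 and 0 and 2.05 and 3.19 CPM in the KO activated pair, and were not called. Itgax, a dendritic cell and macrophage subunit, was at 0.49 and 0.876 CPM in WT and had 2 counts over the KO activated group, which made the KO quiescent mean higher by a ratio of 6.2, with a 95% exact counting interval of 1.72 to 51.2. Itgam, the macrophage and granulocyte subunit, was at 1.31 and 3.07 CPM in WT and 0.257 and 1.6 CPM in KO, also not called. Itgb2 was called lower in KO (−2.95 ± 0.83, SE), where KO quiescent replicate 4 was its highest library, and the call was lost without KO activated replicate 1.

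Calls that rested on 1 library were found for other genes as well. In WT, Itga1 was not called when either activated library was left out, Itga2b and Itgb5 without activated replicate 2, and Lama1 without activated replicate 1. In KO, Itga1 and Lama1 were not called without activated replicate 1, and Itga2b and Lamb3 were not called when either activated library was left out, nor was Lamb3 without quiescent replicate 2. All of these kept their direction.

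The start regions of Tnc, Itgb6 and Itga8 are shown because these genes were called in both genotypes, the first 2 higher and the third lower. RefSeq windows on GRCm38.p6 from 250 bases before to 50 bases after the start were matched for 27 of the 41 genes. The windows shown are chr4:64046966-64047265 for Tnc, chr2:60722554-60722853 for Itgb6 and chr2:12301895-12302194 for Itga8, all on the minus strand and written 5′ to 3′ along the gene, with matches of the first 3 motifs on either strand in capitals. The motifs searched were the TATA box TATAAA, the AP-1 site given by TGANTCA, the E-box given by CANNTG, its myogenic form CAGCTG, which the E-box includes, the GC box GGGCGG and the CArG box.
Tnc: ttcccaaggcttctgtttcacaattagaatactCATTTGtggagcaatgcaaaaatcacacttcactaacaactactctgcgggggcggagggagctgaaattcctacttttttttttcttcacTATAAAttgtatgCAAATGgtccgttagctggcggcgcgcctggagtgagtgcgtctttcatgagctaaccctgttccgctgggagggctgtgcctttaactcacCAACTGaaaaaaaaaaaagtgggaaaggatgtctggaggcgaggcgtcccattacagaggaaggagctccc
Itgb6: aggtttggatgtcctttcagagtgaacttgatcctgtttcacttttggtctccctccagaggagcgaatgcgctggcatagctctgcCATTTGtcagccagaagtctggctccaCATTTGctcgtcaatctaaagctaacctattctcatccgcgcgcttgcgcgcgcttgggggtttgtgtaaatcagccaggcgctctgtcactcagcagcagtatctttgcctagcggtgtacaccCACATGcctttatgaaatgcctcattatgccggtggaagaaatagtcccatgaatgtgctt
Itga8: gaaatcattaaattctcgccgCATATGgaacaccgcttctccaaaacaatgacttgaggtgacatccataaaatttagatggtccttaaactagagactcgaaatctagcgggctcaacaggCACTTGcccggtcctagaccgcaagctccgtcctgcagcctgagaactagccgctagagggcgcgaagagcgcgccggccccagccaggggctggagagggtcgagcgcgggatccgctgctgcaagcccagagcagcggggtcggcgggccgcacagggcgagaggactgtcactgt
Tnc was the 1 gene of 27 with TATAAA, at −126 from the start, where 13.6% of all 32851 windows hold it. CANNTG was found 3 times in the windows of Tnc and Itgb6 and 2 times in that of Itga8, and 72.3% of all windows hold it. TGANTCA was found in none of these 3 windows, in those of Itga9 and Itgax, and in 7.81% of all windows. A CArG box was found in the window of Lama2 alone among the 27, and in 1.63% of all windows. GGGCGG was found in 15 of the 27 windows, that of Tnc at −167 among them, and in 35.7% of all windows, and CAGCTG in 8 of the 27 and 16.3% of all. A match is a match of letters, and binding was not measured.

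Fibronectin varied widely between libraries of 1 group. Fn1 was at 162, 142, 57.3 and 62.3 CPM in WT and 46.5, 59, 209.7 and 40.4 CPM in KO quiescent cells, and at 132 and 37.2 CPM in WT and 16.4 and 254 CPM in KO activated cells. KO activated replicate 2 was the highest of all 12 libraries and KO activated replicate 1 the lowest. The log2 fold changes of −0.30 ± 0.76 in WT and 0.61 ± 0.73 in KO (SE) were not called (adjusted p 0.767 and 0.514, edgeR's quasi-likelihood test).

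**Figure D4:**
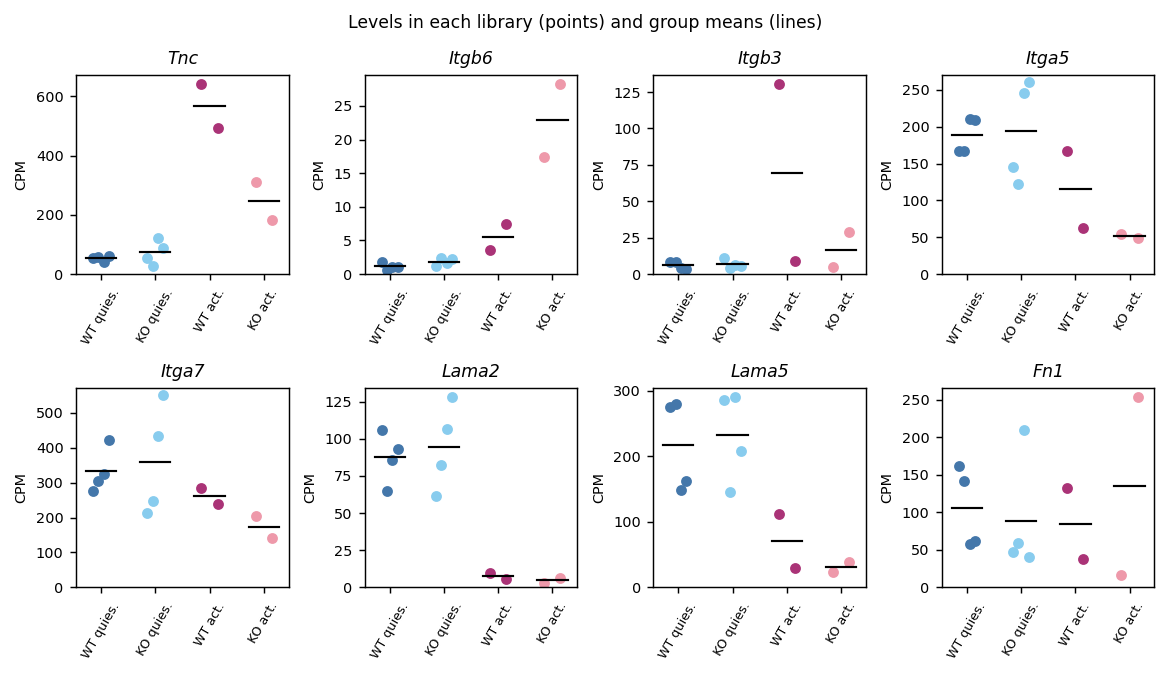
CPM of 8 genes in each library (points, vertical axis from 0) with the mean of each group (line), for WT and KO quiescent (n = 4 each) and activated cells (n = 2 each). Tnc is high in all 4 activated libraries, Lama2 and Lama5 are low, Itgb3 is high in WT activated replicate 1 alone, and Fn1 spans 16.4 to 254 CPM within the KO activated pair.

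The third comparison asked whether the genotypes differed after activation, on 2 against 2 libraries. No gene of the set was called (0 of 41, with 0.0504% of all genes called by edgeR's quasi-likelihood test). DESeq2 on all libraries called 1 of 41, Itgb6, and 0.644% of all genes. At an unadjusted p under 0.05 there were 8 of 41 genes (19.5%), beside 2158 of all genes (8.37%). The median log2 fold change, KO minus WT, was −0.33 over the set and 0 over all genes tested. The median of the set was 0.21 without WT activated replicate 1, −0.63 without WT activated replicate 2, −0.15 without KO activated replicate 1 and −0.59 without KO activated replicate 2, so that its direction rested on 1 library. WT and KO libraries did not overlap for 14 of 41 genes (34.1%, with 24.7% of all genes), and 4 of 41 had both no overlap and an unadjusted p under 0.05 (9.76%, with 6.35% of all genes): Itga5, Itgb6, Lamb3 and Tnc.

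Tnc and Itga5 were lower in KO, at 313 and 182 against 643 and 493 CPM for Tnc and 54.5 and 49.5 against 167 and 63.1 CPM for Itga5. Neither pair of groups overlapped, though the second WT library of Itga5 was close to those of KO. The log2 fold changes were −1.20 ± 0.47 (SE, unadjusted p 0.0185, adjusted p 0.467) and −1.16 ± 0.41 (unadjusted p 0.0102, adjusted p 0.401) by edgeR's quasi-likelihood test. Itgb6 was higher in KO, with a log2 fold change of 2.11 ± 0.58 (SE, unadjusted p 0.00172, adjusted p 0.227, edgeR's quasi-likelihood test), the smallest p of the set in this comparison. Lamb3, the β chain partner of Lama3, was near the detection limit at 4.57 and 1.31 CPM in WT and 0.257 and 0.913 CPM in KO, with a log2 fold change of −2.39 ± 1.10 (SE, adjusted p 0.589).

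The 4 other genes with an unadjusted p under 0.05 were Itga2, Itgb3, Lama3 and Lama5, and their groups overlapped. Lama3 had 0 counts in WT and 5 counts in KO, all in 1 library, so that its difference rests on that library. Itgb3 was at 131 and 8.76 CPM in WT and 4.88 and 28.7 CPM in KO. Itga2, a collagen receptor α subunit, was at 21.4 and 3.07 CPM in WT and 1.03 and 5.93 CPM in KO, and Lama5 at 112 and 29.8 and 23.6 and 39.5 CPM. WT activated replicate 1 was highest for all 3, and without it the KO minus WT log2 fold change was 0.83 for Itgb3 and 0.085 for Itga2, in place of −2.07 and −1.85. That library also had the highest endothelial sum (845 CPM, with 144 to 460 CPM in the other 3 activated libraries) and the highest tenocyte sum (546 CPM, with 109 to 137 CPM), whose part in these values was not tested. These genes were singled out after their values were seen.

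The remaining receptors and ligands were not called, though the libraries of Itga7 and Itgav were lower in KO without overlap. The log2 fold change, KO minus WT, was −0.60 ± 0.39 (SE) for Itga7, −0.52 ± 0.68 for Itga6, −0.15 ± 0.29 for Itgb1, −0.86 ± 0.59 for Itgav and 0.43 ± 0.71 for Itga4. It was −0.73 ± 0.46 for Lama2, −0.33 ± 0.43 for Lamc1, −0.51 ± 0.39 for Hspg2, −0.11 ± 0.34 for Agrn and 0.66 ± 0.87 for Fn1. Nid1 was at 38.2 and 46 CPM in WT and 51.6 and 87.8 CPM in KO, without overlap, and its log2 fold change of 0.73 ± 0.36 had an unadjusted p of 0.0569 by edgeR's quasi-likelihood test.

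**Figure D5:**
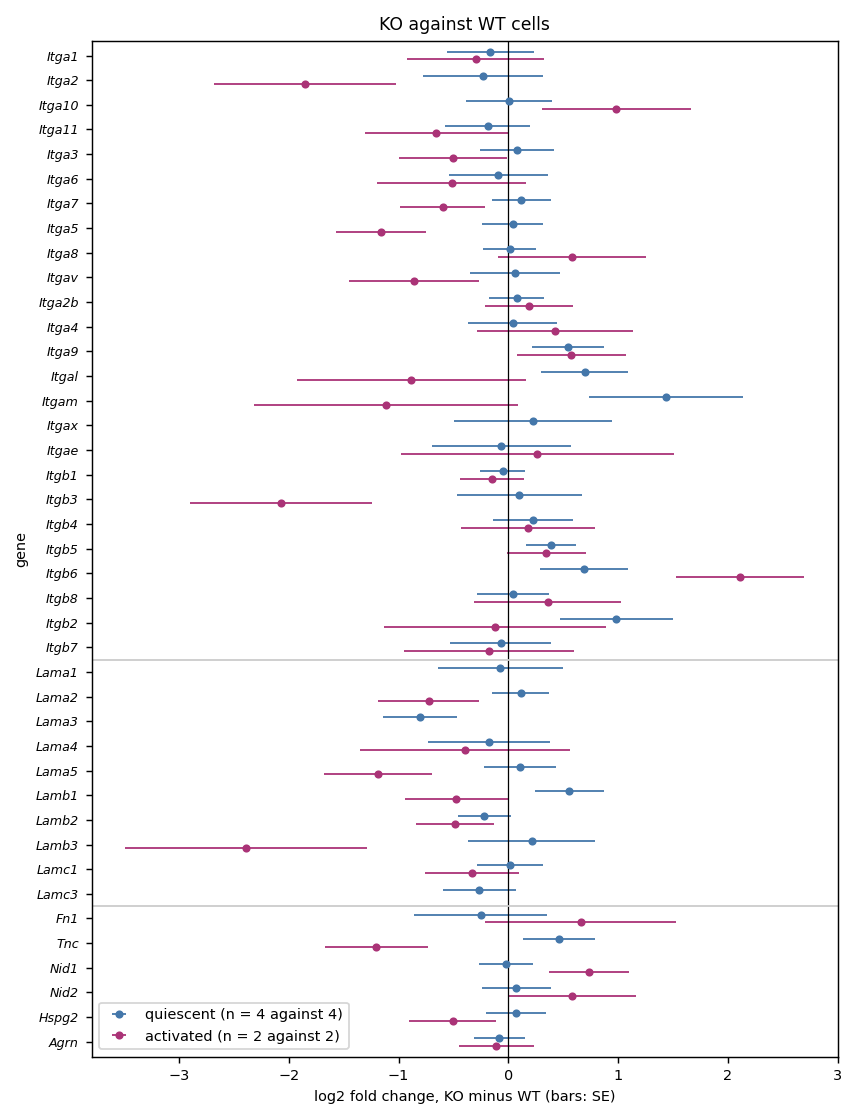
Log2 fold change of KO minus WT (horizontal axis, bars show the SE) in quiescent and activated cells for the 41 genes. Genes with at most 3 counts in an activated group (Lama1, Lama3, Lamc3 and Itgax) are not drawn for activated cells. Quiescent points lie near 0, activated points spread further with longer bars, and no gene was called in either state by edgeR.

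The difference of the KO effect between the states was tested directly, and no gene of the set was called (0 of 41, with 0% of all genes called). DESeq2 on all libraries also called 0 (0.206% of all genes), and 6 of 41 genes had an unadjusted p under 0.05, beside 1699 of all genes (6.59%). The smallest p belonged to Tnc, with a KO effect of 0.46 in quiescent and −1.20 in activated cells and a difference of −1.66 ± 0.57 (log2, SE, unadjusted p 0.00867, adjusted p 0.581, edgeR's quasi-likelihood test). The KO comparison in activated cells and this difference share their activated libraries with the comparisons of the states, so these values are not independent of those above.

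Genes that act with the set were measured from 3 lists that hold no member of it, and none of them was called between KO and WT in either state by edgeR's quasi-likelihood test. DESeq2 on all libraries called 1 in activated cells, where it called 0.644% of all genes: Cspg4, a pericyte proteoglycan, lower in KO (log2 fold change −2.32, adjusted p 0.0226). The 2 WT activated libraries were far apart for Cspg4, at 13.1 and 61.4 CPM, beside 6.42 and 8.9 CPM in KO. Of 30 genes of the adhesion complex inside the cell, 6 rose on activation in WT (20%, against 9.65% of all genes) and 11 fell (36.7%, against 16.5%), and in KO 4 rose (13.3%, against 11.1%) and 12 fell (40%, against 18.5%). Tns3, a tensin that binds integrin tails, rose from 27.8 to 41.3 CPM to 338 to 359.5 CPM in WT (log2 fold change 3.28 ± 0.26, SE), and Itgb1bp2 and Itgb1bp3, which encode muscle proteins that bind the Itgb1 tail, rose with log2 fold changes of 2.73 ± 0.43 and 2.90 ± 0.56. Vcl, the gene of vinculin, fell, with a log2 fold change of −3.98 ± 0.48. Ptk2b, a focal adhesion kinase family member, and Fermt1, an epithelial kindlin, were called lower and had 0 counts in WT activated cells, from 4.34 to 7.73 and 0.241 to 3.62 CPM in quiescent cells. With 0 counts there, a fall was the only call open to Ptk2b and Fermt1. Fga and Tnr, from the list of other integrin ligands, had 0 counts in WT activated cells too. The shares of falls in these lists may therefore hold more such genes.

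Of 14 other receptors of laminin, fibronectin and related matrix, 1 rose in WT (7.14%, against 9.65% of all genes) and 3 fell (21.4%, against 16.5%), both near the share of all genes, and in KO 3 rose (21.4%, against 11.1%) and 6 fell (42.9%, against 18.5%). Those that fell in WT were Dag1, which encodes the dystroglycan that binds laminin and agrin, Bcam, a receptor of the Lama5 chain, and Sdc4, a heparan sulphate co-receptor on satellite cells, with log2 fold changes of −2.06 ± 0.40, −2.99 ± 0.47 and −1.54 ± 0.29 (SE). Gpc1, a glypican, rose, with a log2 fold change of 1.77 ± 0.31. Of 18 other integrin ligands, 2 rose in WT (11.1%, against 9.65% of all genes) and 9 fell (50%, against 16.5%), and in KO 1 rose (5.56%, against 11.1%) and 10 fell (55.6%, against 18.5%). Spp1, the gene of osteopontin, and Npnt, the gene of the Itga8 ligand nephronectin, rose in WT, with log2 fold changes of 3.44 ± 0.37 and 2.16 ± 0.40 (SE). The matrix genes Tnxb, Vtn and Thbs2 fell, with log2 fold changes of −4.98 ± 0.51, −4.79 ± 0.39 and −3.93 ± 0.49 (SE). Spp1 and the 3 matrix genes were called in KO in the same direction, and Npnt was not. Npnt was at 33.5 and 49.9 CPM in WT and 9.35 and 14.6 CPM in KO activated cells, without overlap. That difference was not called by edgeR or by DESeq2 on all libraries. These lists share Cspg4, Egfl7, Sdc4 and Vcam1 with the marker lists.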

How the data were processed

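RNA was measured in 12 libraries of sorted satellite cells. Per the submitters' processing notes and the methods, the authors used Trim Galore 0.6.0, STAR 2.7.2a on GRCm38.p6 (mm10) and, for GENCODE gene counts, Rsubread. The deposited table holds unnormalised counts. Strand and multimapping settings are not given in the sources used here, and 11 of the 41 genes share exon bases with a gene on the other strand: Itga4 (1124 bases), Itgav (634), Lama2 (631), Nid2 (437), Lamc3 (382), Itga8 (372), Fn1 (292), Lama3 (197), Tnc (176), Nid1 (143) and Itga7 (9). Likewise Itga1, Itga10 and Itgam share them with one on the same strand (685, 1739 and 3450 bases). Deposited FPKM values, 1 for each group, served only as a check of the per-length scale.

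From the counts, filterByExpr kept 25771 genes, TMM scaled the libraries, and edgeR 4.0.16 (R 4.3.3) fitted 4 group means to all 12 libraries together. Tests were edgeR's quasi-likelihood F tests with Benjamini-Hochberg adjustment over all genes tested. Calls needed an adjusted p under 0.05, a log2 change larger than 1 in size and more than 10 normalised counts on average over the compared groups, the study's thresholds. SE was the fold change divided by the root of F. CPM per kb used the exon union of GENCODE M21. The steps were tested on simulated data. The 41 genes, role groups, marker lists and lists of related genes were chosen with earlier results of these data known. Full values were given for genes called between genotypes, genes with an unadjusted p under 0.05 and no overlap between genotypes, 12 fixed receptors and ligands, and, of the genes called in both genotypes, up to 6 with the highest (2 rose) and the 6 with the lowest WT fold change. Other genes were named after their values were seen.

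Alternatives were DESeq2 1.42.0, other scalings and filters, a robust fit, the replicate number as a block, omission of CT010467.1 and of each library, and, added after seeing the data, libraries thinned to 1892996 counts outside CT010467.1, a crossed pairing and DESeq2 on the related lists. Same-numbered quiescent libraries did not all deviate together (r of 0.367, 0.152, −0.479 and 0.735 over 6838 genes), so the numbers were not taken as pairs. No 2 libraries held identical counts.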

Additional observations from a re-analysis of the deposited data

Results flagged for a closer look

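In groups of 4 quiescent libraries, 4 of 82 gene and group combinations had 1 library far from the other 3 by Dixon's test, and chance gives about 1 in 20. Itga4 was at 7.8 CPM in WT quiescent replicate 2, with 4.54 to 4.67 CPM in the other 3, and at 10.3 CPM in KO quiescent replicate 2, with 3.66 to 4.54 CPM in the other 3. Itgax was at 3.11 CPM in WT quiescent replicate 3, with at most 0.783 CPM in the other 3. Fn1 was at 210 CPM in KO quiescent replicate 3, with 40.4 to 59.0 CPM in the other 3, and the tenocyte marker sum was 892 CPM in that library and 160 to 227 CPM in the other 3. Its part in the Fn1 level was not tested.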

How the results depend on the processing

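The count of genes called between KO and WT in quiescent cells was 0 under every alternative run. In activated cells it was 1 without a filter on low counts (Itgb3, lower), 1 with DESeq2 on all libraries (Itgb6, higher, adjusted p 0.0492), and 0 to 3 when single libraries were left out, the 3 being Itga5, Itgb3 and Lama5 without WT activated replicate 2. For the difference of the KO effect between states the count was 2 without a filter (Itgb3 and Tnc, both lower, with 0.365% of all genes called). For activation, fewer genes of the set were called in WT without WT activated replicate 2 and in KO without KO activated replicate 1. Fewer of all genes were called in these fits too. When single libraries were left out, the median log2 fold change of the set ran from −1.59 to −1.05 in WT and from −2.19 to −1.40 in KO. Under all 23 alternatives 13 of the 23 WT calls and 15 of the 24 KO calls were made again, 11 of them in both genotypes: Agrn, Hspg2, Itga8, Itgal, Itgb4, Itgb8, Lama2, Lama3, Lamb2, Lamc3 and Nid2. Changes of sign were counted only for the genes given full values and for Itga2, Itgb3 and Lama5. Only their comparisons with an unadjusted p under 0.05 by edgeR's quasi-likelihood test were counted. Among these, 4 single-gene values changed sign, all without WT activated replicate 1, and other genes were not counted. Without that library the median of the set changed sign as well, for KO minus WT in activated cells (−0.33 to 0.21) and for the difference of the KO effect (−0.27 to 0.21). When single libraries were left out, KO minus WT in activated cells ran from −3.67 to 0.085 for Itga2 and from −3.91 to 0.83 for Itgb3, the difference of the KO effect ran from −4.0 to 0.75 for Itgb3, and activation in WT ran from −0.14 to 2.64 for Itga2, with the end of changed sign in each range coming from the fit without that library. A lone remaining library was assumed to vary like the other groups.

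With the replicate number as a block, 0 genes were called between KO and WT in quiescent cells, 0 in activated cells and 0 for the difference. For activation 24 were called in WT (with 25.7% of all genes) and 23 in KO (with 28.4%). In activated cells same-numbered libraries had r of −0.14, and the crossed pairing also called 0. Thinned libraries, in which 37 of the 41 genes could be tested, gave 0, 0, 0, 19 and 20 calls, with 37.3% of all genes called in WT and 40% in KO activation. The 2 activated libraries per genotype and their depth limit what the comparison of genotypes can detect.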
